A study of Homo sapiens with 6 samples.

Results

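HNF4A, HNF4G, FOXA1, FOXA2, FOXA3, ONECUT1, CEBPA and CEBPB are the genes of 8 transcription factors that are enriched in the liver. They were chosen by name, with earlier results of these data known, as 8 of the 59608 genes in a table of RNA-seq read counts. The cells were HepG2, a line established from a human liver tumour. In every library endogenous VEZF1, a zinc finger transcription factor, had been silenced with a guide RNA delivered by lentivirus, and 1 of 2 forms of VEZF1 had been put back. VEZF1-WT is the wild-type protein (3 libraries), and in VEZF1-2A the pair of serines that carry the sugar O-GlcNAc was changed to alanine (3 libraries). No library of unsilenced cells and none of silenced cells without a re-expressed form was analysed here, so each difference is one between the forms. The labels do not say whether the 3 libraries of a form come from separate cultures or whether the silenced cells were a clone or a pool, and p-values measure only the spread between these libraries. The totals were 47414775, 35272710 and 57199396 counts for VEZF1-WT libraries 1 to 3 and 28756765, 39565464 and 33966492 for those of VEZF1-2A, and 20863 genes had no count in any of the 6.

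Hepatocyte identity is maintained by a small set of transcription factors that bind the control regions of genes for plasma proteins, metabolic enzymes and transporters, and that also bind the control regions of one another. HNF4A is a nuclear receptor at the centre of this network. The FOXA proteins are pioneer factors, which can bind their sites in closed chromatin, ONECUT1 carries a cut domain beside a homeodomain, and the C/EBP proteins are leucine zipper factors that tie the hepatocyte program to growth arrest and to the acute phase response. VEZF1 is known to bind runs of guanine.

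The starts of the members were read for such runs and for sites of the network itself. The promoter table of RefSeq (GRCh38.p14), which gives the 250 bases before and the 50 bases after a start, was searched in 8 windows of 6 members: HNF4A and CEBPB with 2 windows each, and FOXA1, FOXA3, ONECUT1 and CEBPA with 1 each. A run of G (GGGGGG, either strand) was found in the upstream of the HNF4A windows and in both CEBPB windows, and in 18.83% of the 34943 promoters searched. A match to the consensus site of the homeodomain factor HNF1 (the words GTTANT and TTAAC with 2 bases between them, either strand) stood in the upstream HNF4A window, and in 30 of all promoters (0.08585%). The 3 stretches that follow are shown because they hold these letters, which are in capitals. Each has 60 bases and is written 5′ to 3′ on the plus strand, which is the coding strand of both genes.
HNF4A run of G, chr20:44355450-44355509: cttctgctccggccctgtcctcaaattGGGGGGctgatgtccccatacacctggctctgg
HNF4A HNF1 site, chr20:44355601-44355660: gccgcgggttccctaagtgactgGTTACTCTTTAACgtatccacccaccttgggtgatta
CEBPB run of G in its upstream window, chr20:50190449-50190508: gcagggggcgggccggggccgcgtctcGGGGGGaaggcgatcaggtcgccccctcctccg
Counted from the RefSeq start, the HNF1 site lay at -75 to -63 and the HNF4A run of G at -222 to -217, and the CEBPB run of G at -107 to -102. In the downstream CEBPB window the run was on the minus strand, at -181 to -176. The HNF4A stretches lie upstream of the gene's first exon, and the CEBPB stretch lies upstream of both CEBPB starts, within the bounds of CEBPB-AS1, a noncoding gene on the other strand. A TATA box (TATAAA in the transcribed direction, in 7.349% of promoters) was found at -30 to -25 in the windows of CEBPA and FOXA3 and at -29 to -24 in the downstream window of CEBPB. The windows of FOXA1 and ONECUT1 and the downstream window of HNF4A held none of the 3 motifs. A match is a description of the letters only, and binding of VEZF1 was not measured in these libraries.

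VEZF1 itself, at chr17:57971547-57988259 on the minus strand of GRCh38, was read first. It stood at 59.3, 45.6 and 40.0 CPM (the count relative to the library total, which is scaled with edgeR's TMM factor) in the VEZF1-WT libraries and at 46.2, 48.6 and 38.9 CPM in the VEZF1-2A libraries. The groups overlapped, and the log2 fold change of VEZF1-WT over VEZF1-2A was 0.12 (SE 0.13, edgeR unadjusted p = 0.407). Beside each such p of the main fit (all 6 libraries, the form of VEZF1 alone) stands that of a two-sided exact permutation test of log2(CPM + 0.1). Here it was 0.7, and with 3 libraries against 3 it cannot go below 0.1. The count of a gene does not separate transcripts of the silenced gene from those of the re-expressed form.

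The libraries were checked against the markers of the labelled cells. The 8 hepatoma markers summed to between 14053 and 16982 CPM, with KRT8, an epithelial keratin, the most abundant. The fetal liver protein AFP stood between 1763 and 3643 CPM. Several markers that define other cells were at or near 0: HBB (blood), AQP1 (bile duct) and CDX1 (intestine) were at 0 in every library, PTPRC (blood) reached 0.121 CPM, CDH5 (endothelium) 0.250 CPM and DCN (stellate cells) 0.0355 CPM. The endothelial list summed to between 2.20 and 4.35 CPM (PECAM1 the most abundant), the list of intestinal and pancreatic fate factors to between 0.112 and 0.302 CPM (PDX1), and the stellate cell list to between 29.2 and 40.8 CPM, nearly all of it ACTA2. The blood list summed to between 113 and 185 CPM, nearly all of it CD68, whose exons overlap another gene. The bile duct list was not low. It summed to between 1742 and 2181 CPM, led by KRT19 (mean 1161 CPM), with SPP1 at 313 to 408 CPM, EPCAM at 316 to 339 CPM and SOX9 at 113 to 120 CPM, and its groups overlapped.

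The 8 members differed in level far more than any of them differed between the forms of VEZF1. Levels of different genes were compared per length, as RPKM (CPM per kilobase of the exon length in the table). HNF4A was the highest, with a mean of 18.9 RPKM over the 6 libraries (17.5 to 21.4), a level above that of 87.9% of the 19111 genes tested. FOXA2 (mean 7.40 RPKM, 6.28 to 8.37), CEBPA (6.29 RPKM, 5.70 to 6.84), FOXA1 (5.78 RPKM, 5.30 to 6.68) and CEBPB (5.76 RPKM, 4.89 to 7.01) followed, and the ranges of neighbours in this order overlapped. ONECUT1 (2.25 RPKM, 1.83 to 2.63) and FOXA3 (2.08 RPKM, 1.81 to 2.38) also overlapped each other and lay below the lowest library of CEBPB. HNF4G, the paralog of HNF4A, was the lowest at 1.02 RPKM (0.824 to 1.37), a level above that of 32.3% of the genes tested. The order thus had 3 gaps that no library bridged, below HNF4A, below CEBPB and below FOXA3. Exon lengths join the exons of all transcripts of a gene, so a gene with many alternative exons such as HNF4A has a lower RPKM than its transcripts in use would give.

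**Figure D1:**
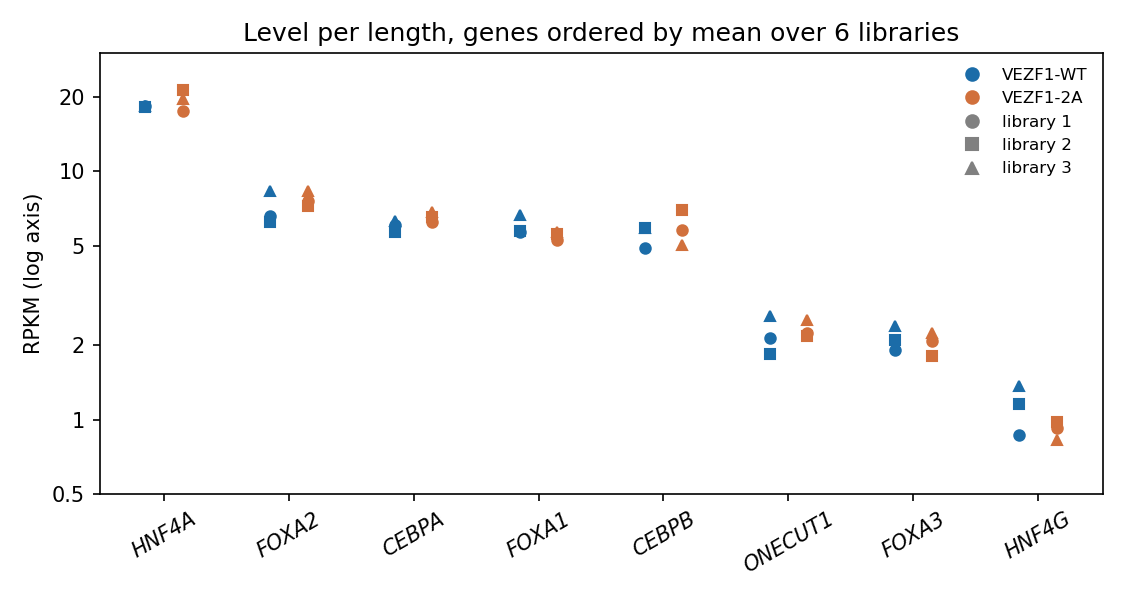
RPKM (log axis) of the 8 liver-enriched transcription factor genes in each library, ordered by the mean over 6 libraries. Colour gives the form of VEZF1 and marker shape the library number. HNF4A lies between 17.5 and 21.4 RPKM, apart from all others, and HNF4G between 0.824 and 1.37 RPKM, and within each gene the colours mix.

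Whether the levels depend on the form of VEZF1 was asked with edgeR's quasi-likelihood test, fitted over all 19111 genes. None of the 8 members was called at an adjusted p under 0.05, and none at an unadjusted p under 0.05. Over all genes tested, 0% were called at the adjusted threshold and 2.13% (408 genes) at the unadjusted one, so the count over 8 genes does not stand out from its background. DESeq2 called 3 genes and limma voom 0 at the adjusted threshold, and neither called a member at the adjusted or the unadjusted one. In none of the 8 did the 3 libraries of one form lie entirely above or below those of the other, against 7.36% of all genes. The log2 fold changes ran from -0.13 to 0.32, with 3 above 0 and 5 below, a median of -0.08 beside 0.00 over all genes tested. The 95% interval of each member held 0. For the 7 members other than HNF4G the lowest bound was a fold of 0.761 (CEBPB) and the highest one of 1.30 (FOXA3), and on the log2 scale HNF4A had the narrowest interval (a fold of 0.841 to 1.05).

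**Figure D2:**
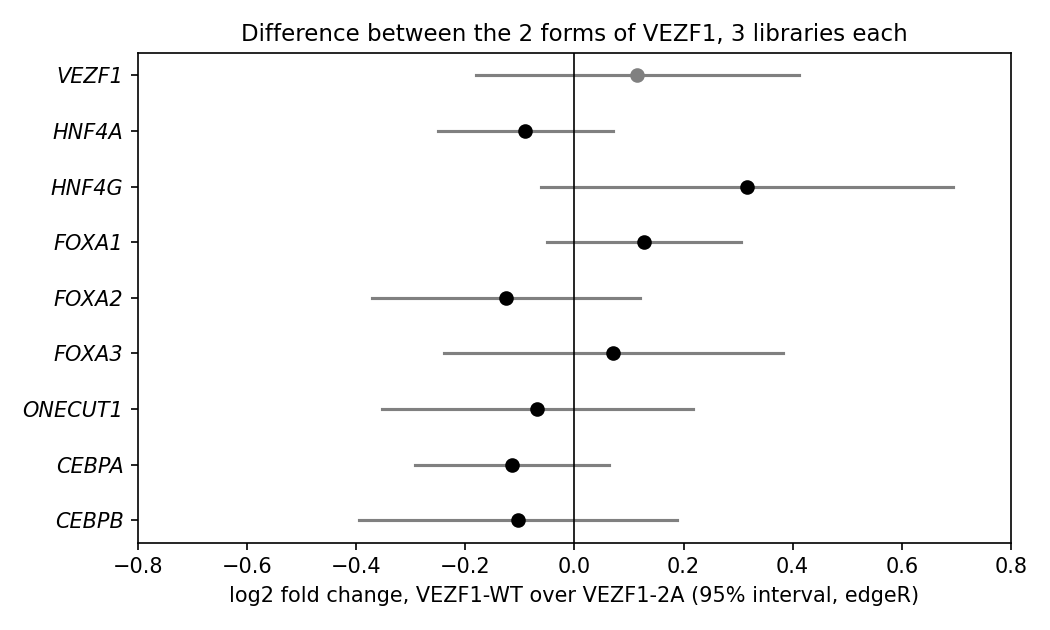
Log2 fold change of VEZF1-WT over VEZF1-2A with its 95% interval from edgeR (n = 3 libraries each) for VEZF1 and the 8 members. All 9 intervals cross 0, and that of HNF4G is the widest, from -0.06 to 0.69.

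HNF4A lies at chr20:44355700-44434596 on the plus strand. Its level was 134, 133 and 135 CPM in the VEZF1-WT libraries and 128, 157 and 144 CPM in the VEZF1-2A libraries. The VEZF1-WT libraries were almost equal (coefficient of variation 0.740%), below the 1.62% to 2.31% that counting alone gives for this gene when 2 counts are taken as 1 read pair, whereas the VEZF1-2A libraries varied by 9.96% and lay on both sides of them. The log2 fold change was -0.09 (SE 0.07, edgeR unadjusted p = 0.238, exact permutation p = 0.4), with a 95% interval from a fold of 0.841 to one of 1.05. Without VEZF1-2A library 1, the lowest, the difference was -0.16 with an unadjusted edgeR p of 0.0371 and an adjusted p of 0.999. Without VEZF1-2A library 2, the highest, it was -0.018, with an unadjusted edgeR p of 0.795.

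HNF4G, which binds the same DNA sites as HNF4A and is better known from the intestine, lies at chr8:75407914-75566834 on the plus strand. It stood at 4.16, 5.56 and 6.55 CPM in VEZF1-WT and at 4.43, 4.70 and 3.95 CPM in VEZF1-2A. A pair of the VEZF1-WT libraries lay above every VEZF1-2A library, and the third, library 1, lay below 2 of them. The log2 fold change of 0.32 (SE 0.17) had the smallest p of the 8 members, an unadjusted edgeR p of 0.0922 and an adjusted p of 0.9996 (exact permutation p = 0.3). Without VEZF1-WT library 1 the difference was 0.47 (unadjusted edgeR p of 0.0116, adjusted p = 0.9999), without VEZF1-WT library 3 it was 0.15 (unadjusted edgeR p of 0.405), and without both libraries numbered 3 it was 0.08 (unadjusted edgeR p of 0.672), so its size rests on single libraries. The spread was also the largest among the members, with a biological coefficient of variation of 14.1% against a median of 10.5%, on counts of 129 to 369 per library. The log2 ratio of HNF4A to HNF4G counts was 4.65 ± 0.33 (SD, n = 3) in VEZF1-WT and 5.03 ± 0.16 in VEZF1-2A, a difference of -0.38 (exact permutation test, two-sided p = 0.2, where 3 libraries against 3 cannot go below 0.1). Per length, HNF4A exceeded HNF4G by 13.5 to 21.1 times in VEZF1-WT libraries and by 18.9 to 23.8 times in VEZF1-2A libraries.

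The FOXA genes are on separate chromosomes and shared no stretch of 50 bases between their transcripts, so that their reads can be told apart. FOXA1 (chr14:37589552-37596059, minus strand) stood at 25.1, 25.4 and 29.5 CPM in VEZF1-WT and at 23.4, 24.7 and 25.2 CPM in VEZF1-2A. VEZF1-WT library 3 was the highest and the other 5 lay within a narrow band, with VEZF1-WT library 1 just below VEZF1-2A library 3. FOXA1 had a log2 fold change of 0.13 (SE 0.08, edgeR unadjusted p = 0.142, exact permutation p = 0.2), which was 0.046 without VEZF1-WT library 3. With libraries scaled by total counts alone, the groups of FOXA1 no longer overlapped (25.0 CPM as the lowest of VEZF1-WT and 24.97 CPM as the highest of VEZF1-2A), which with CEBPA made 2 of 8 members beside 7.39% of all genes.

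FOXA2 (chr20:22581005-22585455, minus strand) stood at 17.2, 16.3 and 21.6 CPM in VEZF1-WT and at 19.8, 18.8 and 21.8 CPM in VEZF1-2A. VEZF1-WT libraries 1 and 2 were below every VEZF1-2A library, and VEZF1-WT library 3 was among the highest. FOXA2 had a log2 fold change of -0.13 (SE 0.11, edgeR unadjusted p = 0.284, exact permutation p = 0.4). Without VEZF1-WT library 3 it was -0.26, with an unadjusted edgeR p of 0.0191 and an adjusted p of 0.999. It was nearer 0 without VEZF1-WT library 1 (-0.08), VEZF1-WT library 2 (-0.049, unadjusted edgeR p of 0.677) or VEZF1-2A library 3 (-0.06). FOXA3 (chr19:45863989-45873797, plus strand) stood at 4.06, 4.46 and 5.06 CPM in VEZF1-WT and at 4.39, 3.85 and 4.74 CPM in VEZF1-2A. The groups overlapped throughout (log2 fold change 0.07, SE 0.14, edgeR unadjusted p = 0.622, exact permutation p = 0.7). The fold change of FOXA3 turned to -0.022 without VEZF1-WT library 3 and to -0.011 without VEZF1-2A library 2. It was 0.14 without VEZF1-WT library 1 or without VEZF1-2A library 3.

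**Figure D3:**
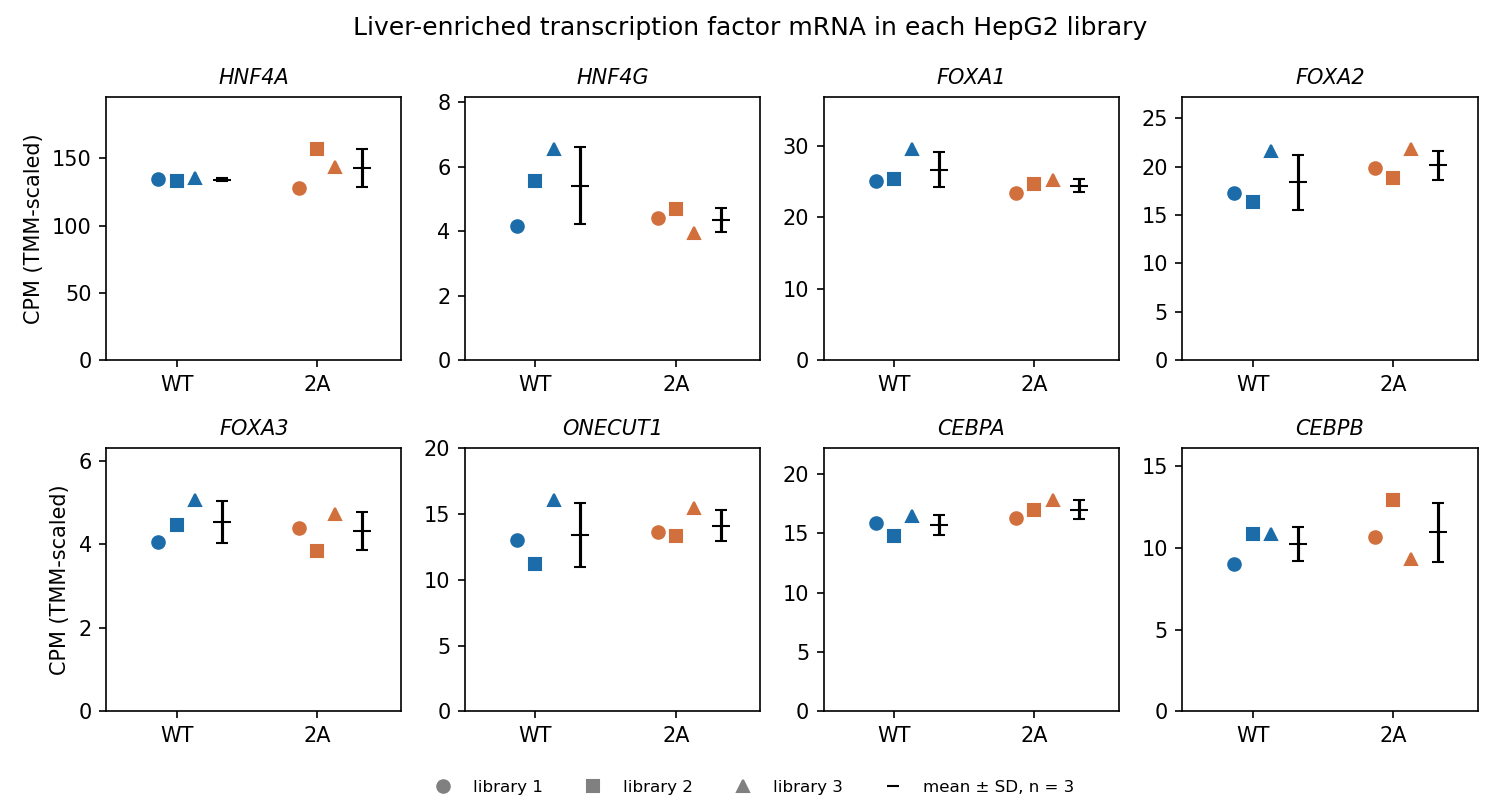
TMM-scaled CPM of the 8 members in each library, with the mean and SD of 3 libraries beside each group and every axis starting at 0. The groups overlap in all 8 panels. The libraries numbered 3 hold the highest pair of values for FOXA2, FOXA3 and ONECUT1.

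The makeup of the family was also compared within each library, a measure that scaling cannot move. It rests on the same counts as the fold changes of FOXA1 and FOXA2, which had opposite signs, and is no separate evidence of a difference. FOXA2 made up 46.6%, 44.4% and 47.9% of the summed RPKM of the FOXA genes where VEZF1-WT was put back and 50.8%, 49.4% and 51.3% where VEZF1-2A was. Every VEZF1-WT library was below every VEZF1-2A library. The means were 46.3% ± 1.73 (SD, n = 3) and 50.5% ± 0.992, a difference of -4.23 percentage points with a two-sided exact permutation p of 0.1, the smallest that 3 libraries against 3 allow, so the design could not reach 0.05. The difference ran from -5.01 to -3.30 points with each library left out in turn. The share of FOXA1 was 3.51 points higher in VEZF1-WT (39.7% ± 1.15 in VEZF1-WT and 36.2% ± 1.75 in VEZF1-2A, groups apart), and FOXA3 made up 14.0% ± 0.759 and 13.3% ± 0.787, with overlap. The exons of FOXA1 overlap those of TTC6 on the other strand (6254 counts for FOXA1 and 1630 for TTC6 over the 6 libraries), and since the strand setting of the counting is not given in the sources used here, the part of TTC6 reads in the FOXA1 count was not tested.

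**Figure D4:**
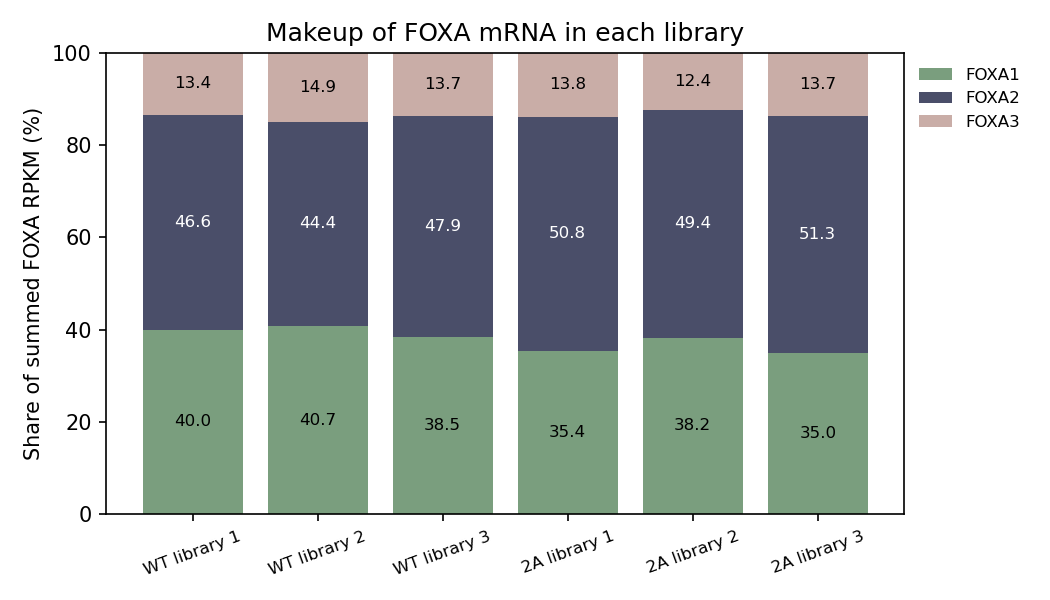
Share of FOXA1, FOXA2 and FOXA3 in the summed RPKM of the family (percent, stacked to 100) in each library. FOXA2 takes 44.4% to 47.9% in the VEZF1-WT libraries and 49.4% to 51.3% in the VEZF1-2A libraries.

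ONECUT1 (chr15:52755053-52791078, minus strand), also known as HNF6, stood at 13.0, 11.2 and 16.04 CPM in VEZF1-WT and at 13.6, 13.3 and 15.4 CPM in VEZF1-2A. The VEZF1-WT libraries held both the lowest and the highest value, and the VEZF1-2A libraries lay between them. Between the forms it differed by -0.07 on the log2 scale (SE 0.13, edgeR unadjusted p = 0.609, exact permutation p = 0.6). The difference of ONECUT1 turned to 0.042 without VEZF1-WT library 2 (unadjusted edgeR p of 0.731). Without VEZF1-WT library 3 it was -0.22 (unadjusted edgeR p of 0.0793).

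CEBPA (chr19:33299934-33302534, minus strand), the family member that holds hepatocytes out of the cell cycle, stood at 15.8, 14.8 and 16.5 CPM in VEZF1-WT and at 16.3, 17.0 and 17.8 CPM in VEZF1-2A. VEZF1-WT library 3 exceeded the lowest VEZF1-2A library, and the remaining VEZF1-WT libraries were below all of them. CEBPA had a log2 fold change of -0.11 (SE 0.08, edgeR unadjusted p = 0.184, exact permutation p = 0.2), and with scaling by total counts alone the groups of CEBPA no longer overlapped (16.2 CPM as the highest of VEZF1-WT and 16.5 CPM as the lowest of VEZF1-2A). CEBPB (chr20:50190830-50192668, plus strand), which interleukin signals raise in the acute phase response, stood at 9.0, 10.8 and 10.8 CPM in VEZF1-WT and at 10.6, 12.9 and 9.32 CPM in VEZF1-2A. The VEZF1-2A libraries spanned nearly the whole range of the VEZF1-WT libraries and more (log2 fold change -0.10, SE 0.13, edgeR unadjusted p = 0.451, exact permutation p = 0.6). The fold change of CEBPB turned to 0.036 without VEZF1-2A library 2, and was -0.21 without VEZF1-2A library 3. The log2 ratio of CEBPA to CEBPB counts was 0.62 ± 0.18 (SD, n = 3) in VEZF1-WT and 0.65 ± 0.27 in VEZF1-2A, with a difference of -0.02 (two-sided exact permutation p = 0.9). The difference in this ratio was -0.15 without VEZF1-2A library 2 and 0.12 without VEZF1-2A library 3. Both genes are intronless and overlap noncoding genes on the other strand, CEBPA with 3950 counts beside 887 and 1508 of AC008738.3 and AC008738.5, and CEBPB with 2558 beside 608 of CEBPB-AS1.

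Of 6 symbols listed for noncoding genes beside the members, 4 were in the table, and none was called. LINC00261, beside FOXA2, stood at 40.4, 35.4 and 49.0 CPM in VEZF1-WT and at 33.2, 41.5 and 50.3 CPM in VEZF1-2A (log2 fold change -0.0016, edgeR unadjusted p = 0.991, exact permutation p = 1). As for FOXA2, its highest pair of values was in the libraries numbered 3. CEBPA-DT stood at a mean of 3.57 CPM in VEZF1-WT and 4.05 CPM in VEZF1-2A (log2 fold change -0.19, exact permutation p = 0.4), CEBPB-AS1 at 2.43 and 2.66 CPM (-0.14, p = 0.6) and HNF4A-AS1 at 0.382 and 0.473 CPM (-0.35, p = 1), all with overlap.

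Several members shared a pattern over the libraries that crossed the groups. In VEZF1-WT library 1 none of the 8 was above its own mean over the 6 libraries, in VEZF1-WT library 3 there were 7, and in VEZF1-2A library 3 there were 5. FOXA2, FOXA3 and ONECUT1, 3 of the 8 members, had their highest pair of values in the libraries numbered 3, as did 5 of 25 other factors of the network, 16 of 42 hepatocyte target genes and 2942 of all 19111 genes. The hepatocyte target genes were, in the median, 0.15 (log2) above their own means in VEZF1-WT library 3, 0.13 above in VEZF1-2A library 3 and 0.11 above in VEZF1-2A library 2. The 12 proliferation genes were 0.16 above in VEZF1-WT library 1 and in VEZF1-2A library 3, 0.10 above in VEZF1-WT library 3, and between 0.11 and 0.16 below in the other 3 libraries. Their part in the levels of the members was not tested. The labels name no batch, and the libraries numbered 3 were the largest of VEZF1-WT and the second of VEZF1-2A in total counts.

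**Figure D5:**
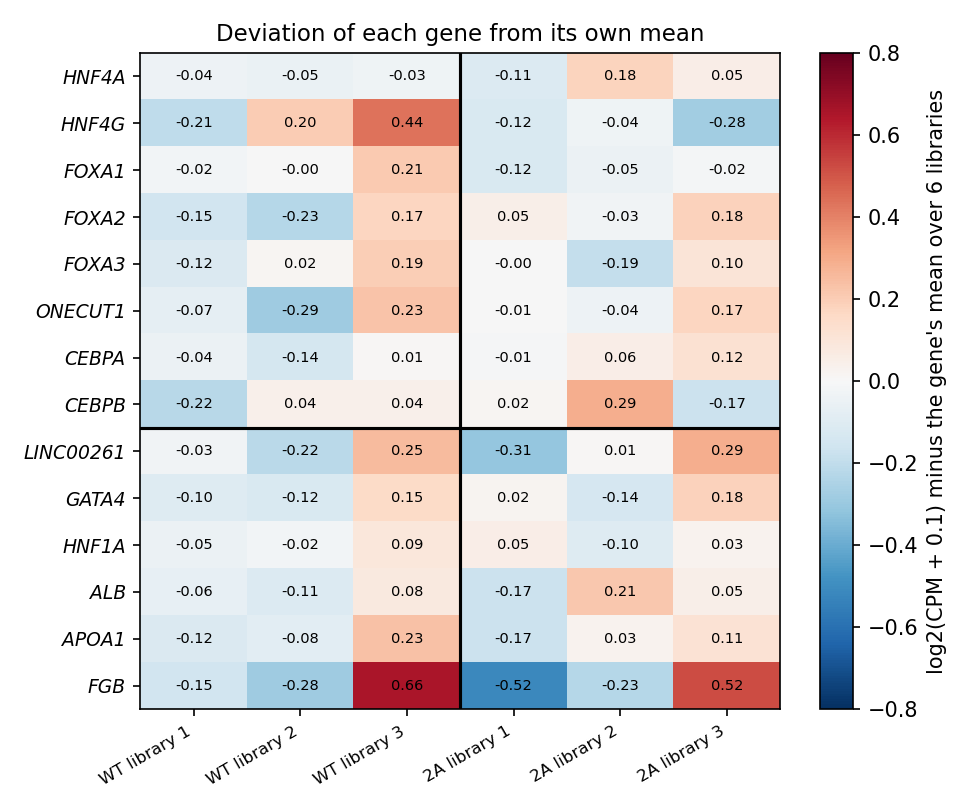
Log2(CPM + 0.1) of each gene minus its own mean over the 6 libraries, for the 8 members (above the line) and 6 genes of their network chosen as examples. Columns are libraries, with VEZF1-WT left of the vertical line. WT library 3 is positive for 7 of the 8 members, and the fibrinogen gene FGB spans the widest range.

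The gene whose pattern over the 6 libraries was most like that of each member was sought among 63 network factors and target genes, by the mean absolute difference of centred log2(CPM + 0.1) values. It was PROX1, a homeodomain factor of the liver, for CEBPA (0.014), GATA4, a zinc finger factor of the early liver, for FOXA2 (0.05) and ONECUT1 (0.07), and ALB, which encodes albumin, for HNF4A (0.05). It was CEBPG for FOXA1 (0.06), NR0B2 for FOXA3 (0.06), HPD for CEBPB (0.10) and RBP4 for HNF4G (0.18). For HNF4G and FOXA1 the difference to that gene was nearly as large as their own mean deviation over the libraries (0.21 and 0.07), while CEBPA had a deviation of 0.06.

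Of 26 other transcription factors of the network, 25 had enough counts to be tested, and edgeR's main fit called none at either threshold. At the unadjusted one DESeq2 called CEBPD. With the replicate block edgeR called CEBPD (unadjusted edgeR p of 0.0165, adjusted p = 0.999) and CREB3L3 (unadjusted edgeR p of 0.0065, adjusted p = 0.999). It also called both with no filter on low counts, without VEZF1-WT library 3 and without VEZF1-2A library 1. Without both libraries numbered 3 it called 4 of these factors, beside 833 of the 19360 genes tested. They were CEBPD, CREB3L3, NR1I2 (log2 fold change -0.29, unadjusted edgeR p of 0.0182) and XBP1 (0.15, unadjusted edgeR p of 0.0291). NR1I2 (-0.27) and XBP1 (0.23) were also called without VEZF1-2A library 3, and NR2F6 (0.24) without VEZF1-2A library 2. In the main fit the log2 fold changes of the 25 factors had a median of -0.01 and ran from -0.40, for CEBPD (exact permutation p = 0.2), to 0.15. In PPARA and ONECUT2 the VEZF1-WT libraries all lay below the VEZF1-2A libraries, which makes 2 of 25 beside 7.36% of all genes. The highest per length were XBP1 at 169.5 RPKM, a factor of the unfolded protein response, ATF5 at 20.2 RPKM and CREB3L3 at 16.04 RPKM, a factor of lipid metabolism. Of these, CREB3L3 and ATF5 stood near HNF4A in level. The exons of ATF5 (14100 counts over all libraries) overlap those of NUP62 (12932) and IL4I1 (5838) on the other strand. The part of their reads in the ATF5 count was not tested.

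Of 15 cofactors, 1 was called at the unadjusted threshold, which calls 2.13% of all genes. The cofactors and the hepatocyte genes below were listed with earlier results of these data known. TRIB2, a pseudokinase that brings C/EBPα to degradation, stood at 0.930, 0.505 and 0.319 CPM in VEZF1-WT and at 0.961, 1.55 and 1.21 CPM in VEZF1-2A. TRIB2 had a log2 fold change of -1.10 (SE 0.38, edgeR unadjusted p = 0.0154, adjusted p = 0.9996, exact permutation p = 0.1, the smallest possible), lower in all 3 VEZF1-WT libraries, although the closest pair of libraries nearly touched. It was no longer called without VEZF1-WT library 3 (-0.77), without VEZF1-2A library 2 (-0.90) or without both libraries numbered 3 (-0.80). The cofactors with the highest levels per length were MED1 (16.8 RPKM), TLE1 (13.5 RPKM) and TRIB1 (12.5 RPKM), the last also an adaptor for C/EBPα degradation.

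Of 49 hepatocyte genes whose promoters or enhancers the members are known to bind, 42 were tested, and 2 were called at the unadjusted threshold (2.13% of all genes), both lower in VEZF1-WT. IGFBP1, a secreted binding protein of insulin-like growth factors, stood at 33.8, 38.1 and 19.1 CPM in VEZF1-WT and at 41.8, 86.8 and 43.1 CPM in VEZF1-2A. All VEZF1-WT libraries were below all VEZF1-2A libraries, by a log2 fold change of -0.93 (SE 0.30, edgeR unadjusted p = 0.0101, adjusted p = 0.9996, exact permutation p = 0.1). PCK1, the enzyme that commits carbon to gluconeogenesis, stood at 2.07, 1.74 and 1.95 CPM in VEZF1-WT and at 2.47, 3.40 and 2.41 CPM in VEZF1-2A. It too had separate groups, with a log2 fold change of -0.53 (SE 0.19, edgeR unadjusted p = 0.0176, adjusted p = 0.9996, exact permutation p = 0.1). Without VEZF1-2A library 2, which holds the highest value of both genes, none of the 42 was called (IGFBP1 -0.49, PCK1 -0.34), and PCK1 was also not called without VEZF1-WT library 2 (-0.47). IGFBP1 passed the adjusted threshold under 2 of 15 alternatives, and PCK1 under none. The 2 were the fit with no filter on low counts (log2 fold change -0.92, edgeR adjusted p = 9.4e-25) and the replicate block (-0.89, edgeR adjusted p = 0.0016). The small p with no filter thus came without a larger difference than in the main fit. With the DESeq2 test IGFBP1 had the same -0.92 and an unadjusted DESeq2 p of 0.0484.

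In the same edgeR fit the remaining targets were not called in either direction. Over the 42 tested, 13 log2 fold changes were above 0 and 29 below, with a median of -0.03, and 3 genes had separate groups (IGFBP1, PCK1 and CPS1), all lower in VEZF1-WT, a count of 3 in 42 beside 7.36% of all genes. The most abundant per length were APOA2 at 1391 RPKM, ALB at 926 RPKM and APOA1 at 887 RPKM, genes of plasma proteins. G6PC, the last enzyme of glucose release, was at 0 in every library, which by counting error alone allows up to 3 read pairs a library, and F9, TDO2, SLC10A1, CYP3A4 and CYP8B1 were among the genes with too few counts to be tested. None of the 12 proliferation genes, led per length by TPX2 (83.8 RPKM), TOP2A (78.8 RPKM) and CCNB1 (44.1 RPKM), was called, although 11 of the 12 log2 fold changes were above 0, with a median of 0.06.

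The sum of the 8 members was 48.4 ± 3.08 RPKM (SD, n = 3) in VEZF1-WT and 50.5 ± 2.58 RPKM in VEZF1-2A, and HNF4A held 37.8% and 38.5% of it. The ranges of both overlapped. In bulk libraries fewer cells with a transcript and less of it per cell cannot be told apart.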

How the data were processed

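HepG2 RNA was sequenced in 6 libraries, whose labels give the form of VEZF1 (3 each). The authors deposited 1 table of read counts per gene, whole numbers without normalization, made from poly(A)-primed libraries (SMARTER kit). Per the labels the genome build is GRCh38; the aligner, the counting program and the strand setting are not given in the sources used here. Of 59613 lines 5 were left out (a broken entry of ANK2). Between 81.0% and 83.0% of counts from 1 to 10 were even, so a read pair may count as 2, and tests rest on the spread between libraries. Within each group every pair of libraries differed by more than counting noise (chi-square per degree of freedom 3.15 to 12.0, counts halved).

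Counts were fitted in R 4.3.3 with edgeR 4.0.16: filterByExpr (minimum count 10, minimum total 15), TMM factors (0.977 to 1.01), glmQLFit and glmQLFTest with the group alone (two-sided, prior count 0.125, prior degrees of freedom 6.35) and Benjamini-Hochberg adjustment over all 19111 genes tested. The common biological coefficient of variation was 9.71%. RPKM was computed from TMM-scaled CPM and the table's exon length. Ratios and shares within a library were compared by two-sided exact permutation tests. The edgeR test gives no standard error, so each SE is the absolute log2 coefficient, without the prior count, over the square root of the F statistic. Intervals of 95% use this SE and the t distribution around the log2 fold change. A gene was said to have separate groups where all 3 libraries of one form lay on one side of the other 3. DESeq2 1.42.0, limma 3.58.1 (voom), other scalings, no filter, halved counts, removal of genes that share exon positions, a replicate block and each library left out in turn were alternatives. Plots used matplotlib 3.10.9 (Python 3.11.15).

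The members and the gene lists were chosen with earlier results of these data known. Named genes are the members, VEZF1, list genes with an unadjusted p under 0.05 (up to 8 per list), the 3 of each list highest per length, noncoding neighbours in the table, the leading and absent markers, and for each member the gene of most like pattern. CEBPD, NR1I2, NR2F6, PPARA, ONECUT2, CPS1, FGB, AFP, PTPRC, CDH5, DCN and genes too low to test were named after their values were seen.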

Additional observations from a re-analysis of the deposited data

How the results depend on the processing

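None of the 8 members had an adjusted p under 0.05 under any of the 15 alternatives, and the median of their log2 fold changes stayed between -0.12 and -0.0032. At the unadjusted threshold 1 member was called with no filter on low counts (HNF4G, edgeR adjusted p = 0.914), 1 with both libraries numbered 3 left out, a setting chosen after seeing the data (FOXA2, edgeR adjusted p = 0.990), and between 0 and 1 with each library left out. With scaling by library size alone, 2 members (FOXA1 and CEBPA) had groups that did not overlap, beside 7.39% of all genes. With each library left out in turn, the log2 fold change changed sign for FOXA3 (-0.022 to 0.14), ONECUT1 (-0.22 to 0.042) and CEBPB (-0.21 to 0.036), and so did the log2 ratio of CEBPA to CEBPB (-0.15 to 0.12). FOXA1 and CEBPA kept their sign and stayed uncalled, and HNF4A, HNF4G and FOXA2 kept their sign under all alternatives in which they were fitted. Over all genes, calls at the adjusted threshold numbered 16 with no filter, 3 with the DESeq2 test, 6 with the replicate block and 4 without the libraries numbered 3. IGFBP1 passed it with no filter (edgeR adjusted p = 9.4e-25) and with the block (adjusted p = 0.0016). Its log2 fold changes there were -0.92 and -0.89, beside -0.93 in the main fit. At the unadjusted threshold the same settings gave 896 of 38745 genes tested, 219 of 19111, 825 of 19111 and 833 of 19360. The fit with overlapping genes left out (8547 tested, without FOXA1, CEBPA and CEBPB) gave 154. Leaving out 1 library gave 292 to 973, the most without VEZF1-2A library 3 (19883 tested). Of the network factors 2, 1, 2 and 4 were called under those 4 settings, and 0 to 2 with a library left out. Of the hepatocyte targets 7 were called with no filter, where targets too low for the main fit were also tested. The block called 4, and the fits with a library left out 0 to 8. The 8 were called without VEZF1-2A library 1, beside 472 of 19817 genes tested, and the 0 without VEZF1-2A library 2, beside 345 of 19329. The replicate numbers were not taken as pairs: same-numbered libraries correlated at 0.08, 0.14 and 0.36 in their deviations from the group means, not all above 0.1. The libraries numbered 3 matched each other best, as VEZF1-WT library 1 did VEZF1-2A library 1 and VEZF1-2A library 2 did VEZF1-WT library 2, but VEZF1-WT library 2 and VEZF1-2A library 1 were each other's best (0.16). The FOXA2 share stayed lower in VEZF1-WT throughout (with the block, two-sided exact permutation p = 0.25, the smallest that 3 pairs allow). The cause of these changes was not tested. HNF4G and FOXA3, with 128 to 369 counts a library, are the members whose levels depth limits most.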
